A study of Mus musculus with 6 samples.

Results

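Muscle atrophy ubiquitin ligases are described here by their transcript signals in mouse gastrocnemius, the large calf muscle. The 8 genes Fbxo32, Trim63, Fbxo30, Fbxo31, Fbxo21, Cblb, Nedd4 and Traf6 were taken by symbol from the platform annotation, which gave 23 probe sets of 45037 and 8 genes of 18193. The rule uses the symbols alone, but the genes to look up were chosen with earlier results of these data known, so their counts beside those of all genes are a description. Each gene is represented by its brightest probe set (highest average of log2 signal), and the other probe sets of the gene serve as a check.

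The study asked, by its title, about diabetes, muscle and mitochondria under an iron salt given with 5-aminolevulinic acid. Male C57BL/6J mice ate 1 of 3 diets for 15 weeks, starting when they were 6 weeks old. In the HF+SFC+ALA groups the food was the high-fat diet D12492 (60 kcal% fat) with sodium ferrous citrate (SFC) at 0.023% and 5-aminolevulinic acid phosphate (ALA) at 0.2% by weight. The HF groups ate D12492 alone, and the Control groups ate D12450B (10 kcal% fat). Muscle of each diet was taken after 24 h or after 4 h of fasting, and the RNA of each group was pooled on 1 array. There were thus 6 pools, 3 for each fasting time and 2 for each diet, and no combination had a replicate. The age label reads 21 months, although the start age and the weeks of diet add up to less. How many mice made up a pool is not stated, and p-values measure only the spread between pools that is left after diet and fasting time.

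Muscle loses mass in fasting, disuse and disease when its proteins are broken down faster than they are made. Ubiquitin ligases pick the proteins to be tagged with ubiquitin, a small protein that marks its target for the proteasome. Fbxo32 (atrogin-1, or MAFbx) and Trim63 (MuRF1) are the classic markers of such atrophy, and FoxO transcription factors are known to switch on both genes when insulin signalling is low. Fbxo32, Fbxo30, Fbxo31 and Fbxo21 are F-box proteins, the part of an SCF ligase (Skp1, cullin, F-box) that holds the substrate. Trim63, Cblb and Traf6 are RING ligases, and Nedd4 is a HECT ligase, which takes ubiquitin onto itself before it passes it on.

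The deposited signals are linear array intensities. On each array the mean after trimming was 500.004, and the median signal ran from 62.98 to 69.51. All 9 skeletal muscle markers were above the signal filter in these pools, and their summed signal ran from 332568 to 391262. The ratio of 3' to 5' signal of the actin control, a sign of RNA quality, was 1.52 in the HF pool at 4 h and 1.08 to 1.22 in the other 5 pools. That of the GAPDH control was 0.83 in the HF pool at 4 h and 0.81 to 0.86 in the other 5 pools. Signals are relative to each array's total. In such bulk tissue, fewer cells of a type and less RNA per cell cannot be told apart.

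Between 24 h and 4 h of fasting, 3 of the 8 ligases rose past an adjusted p of 0.05, and none fell. They were Fbxo32 at 1.79-fold, Cblb at 1.63-fold and Fbxo21 at 1.61-fold. The test was limma's, in a model of diet and fasting time, adjusted by Benjamini-Hochberg over 11526 genes. By the same test 278 genes, or 2.41%, passed in either direction and 172, or 1.49%, were higher at 24 h. The median difference over the 8 ligases was 0.26 on the log2 scale, beside 0.01 over all genes tested. All 8 fitted differences were above 0, as were 51.7% of those of all genes tested. An unadjusted p under 0.05 was found for 6 of the 8, and for 2039 of the 11526 genes.

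Fbxo32 had signals of 18934, 14183 and 25513 at 24 h in the HF+SFC+ALA, HF and Control pools, against 9899, 8834 and 13711 at 4 h in the same order of diets. Each 24 h pool was above each 4 h pool, though the HF pool at 24 h lay close to the Control pool at 4 h. The difference between 24 h and 4 h was 0.84 ± 0.07 on the log2 scale (SE, 3 pools against 3; 95% interval 0.680 to 0.997; limma adjusted p = 0.00146). Within the diets it was 0.94 in HF+SFC+ALA, 0.68 in HF and 0.90 in Control. By p-value Fbxo32 ranked 3 among the 11526 genes.

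Cblb, a RING ligase known in mouse muscle to act on the insulin receptor substrate in disuse, had signals of 1107, 982 and 1422 at 24 h in HF+SFC+ALA, HF and Control, against 740, 620 and 782 at 4 h. The lowest 24 h pool was above the highest 4 h pool. The difference was 0.70 ± 0.10 (log2, SE; limma adjusted p = 0.00978), with 0.58 in HF+SFC+ALA, 0.66 in HF and 0.86 in Control.

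Fbxo21, an F-box protein counted among the ligases that rise in wasting muscle, had signals of 690, 762 and 868 at 24 h in HF+SFC+ALA, HF and Control, against 452, 473 and 508 at 4 h. Here too the 2 sets of pools did not overlap. The difference was 0.69 ± 0.10 (log2, SE; limma adjusted p = 0.0130), with 0.61 in HF+SFC+ALA, 0.69 in HF and 0.77 in Control.

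Trim63 had signals of 23368, 18795 and 29032 at 24 h in HF+SFC+ALA, HF and Control, against 18585, 19731 and 22109 at 4 h. The signal was higher at 24 h in the HF+SFC+ALA and Control pools and slightly lower at 24 h in the HF pools. The fitted difference of 0.22 ± 0.09 did not pass (log2, SE; limma adjusted p = 0.252), with 0.33 in HF+SFC+ALA, -0.07 in HF and 0.39 in Control. Leaving out either pool of a diet takes that diet out of the fasting difference of any gene, so both fits give the same value. For Trim63 it was 0.36 without either HF pool, 0.13 without either Control pool and 0.16 without either HF+SFC+ALA pool. Each fit that leaves out 1 pool has 1 residual degree of freedom, and an arm left with 1 pool is taken to vary like the others. With 1 pool for each combination, whether the response to fasting differs between diets could not be tested for any gene.

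The other 4 ligases did not pass for fasting. Fbxo30, an F-box protein also named MUSA1 and induced in denervated mouse muscle, had 1035, 972 and 890 at 24 h in HF+SFC+ALA, HF and Control, against 783, 767 and 810 at 4 h. Its pools did not overlap, and the difference was 0.29 ± 0.10 (log2, SE; limma adjusted p = 0.159). Nedd4 had 4918, 4292 and 4642 at 24 h, against 4331, 3878 and 4253 at 4 h in the same order of diets. Its signal was higher at 24 h within each diet by a small amount, and the pools overlapped (0.15 ± 0.06, log2, SE; limma adjusted p = 0.265).

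Fbxo31, an F-box protein known for cell cycle control, had 3645, 3558 and 4581 at 24 h in HF+SFC+ALA, HF and Control, against 3450, 3732 and 3895 at 4 h. Its difference was 0.08 ± 0.08 (log2, SE; limma adjusted p = 0.647), and the 4581 of the Control pool at 24 h stood above the other 5 pools. Traf6, which joins ubiquitin chains in inflammatory signalling, had 238, 308 and 284 at 24 h in HF+SFC+ALA, HF and Control, against 264, 237 and 300 at 4 h. The diets had no common direction (0.05 ± 0.16, log2, SE; limma adjusted p = 0.916).

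In all, 5 of 8 ligases (Fbxo32, Fbxo30, Fbxo21, Cblb and Nedd4) were higher at 24 h in each of the 3 diets, as were 2426 of 11526 genes (21%). For 4 of them, all but Nedd4, each 24 h pool was above each 4 h pool, as for 1220 genes (10.6%). Both counts are those of the brightest probe sets. Each of the 4 also had another probe set above the signal filter on which the pools of the 2 times overlapped. A higher signal at 24 h in each diet did not hold on every probe set of Fbxo30, Fbxo21 and Nedd4. Across the pools the highest signal was 2.89 times the lowest for Fbxo32, 2.29 times for Cblb and 1.92 times for Fbxo21. For the other 5 ligases it was 1.27 to 1.56 times. Several markers of other cells were lower at 24 h than at 4 h. The summed signal of 4 smooth muscle markers was 7381 to 10771 at 24 h, against 10013 to 13553 at 4 h, and 2 of the 4 fell past the threshold. That of 6 lymphocyte markers on the array, with 4 of them (Cd3e, Cd3g, Cd4 and Cd79a) below the signal filter, was 1034 to 1062 at 24 h, against 1352 to 1629 at 4 h. Most of that sum was Ighm, at 848 to 937 at 24 h against 1170 to 1429 at 4 h. Ighm fell by 0.57 (log2; limma adjusted p = 0.0266). Of 5 fibroblast markers 1 fell, Col1a1, by 0.62 (log2; limma adjusted p = 0.0129). Of 5 adipocyte markers 4 were lower at 24 h with none past the threshold, and the list median was -0.80 (log2). Fabp4, the brightest of them, was higher at 24 h in each diet. The adipocyte sum was therefore higher too, at 29086, 37023 and 26925 at 24 h in HF+SFC+ALA, HF and Control. At 4 h it was 28691, 32800 and 22938 in the same order of diets. The part of these cell markers in the result was not tested.

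**Figure D1:**
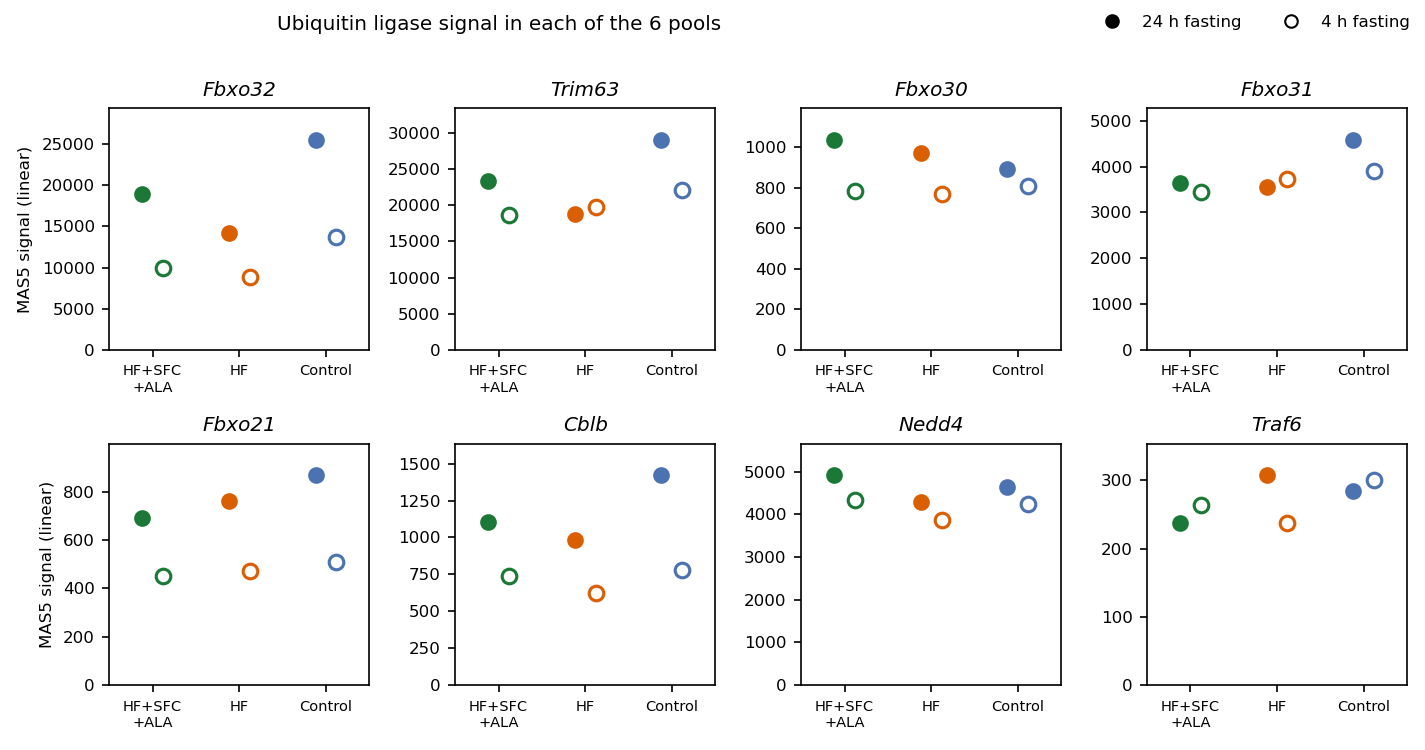
Signal of each of the 8 ligases (linear array intensity, axis from 0) in the 6 pools, 1 point a pool, by diet, with 24 h as filled points left of 4 h as open points. For Fbxo32, Cblb, Fbxo21 and Fbxo30 the 3 pools at 24 h lie above the 3 pools at 4 h, while the pools of Trim63, Fbxo31, Nedd4 and Traf6 overlap.

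**Figure D2:**
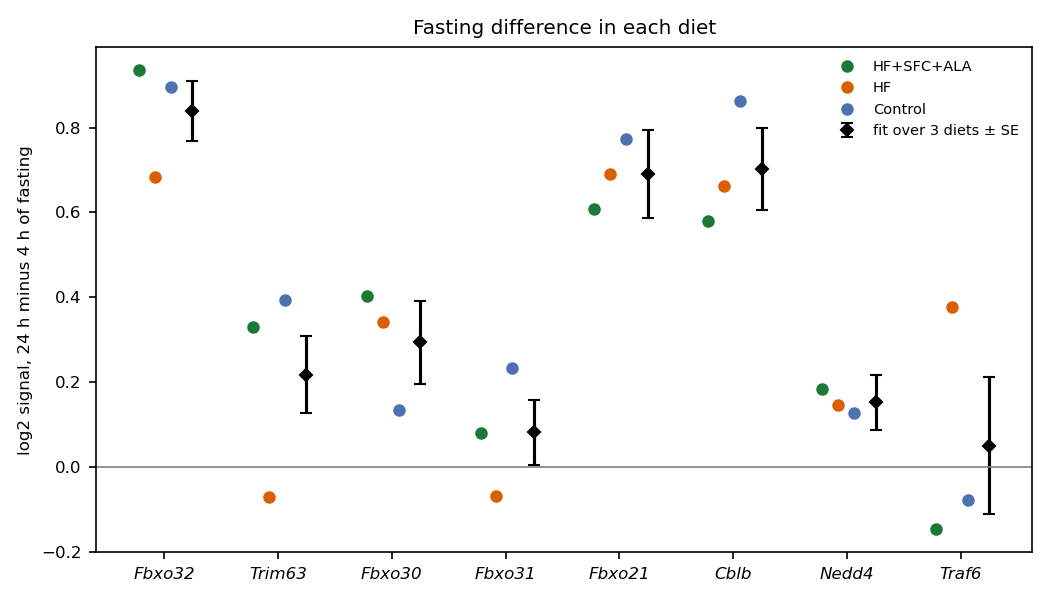
Difference in log2 signal between 24 h and 4 h of fasting for each ligase, 1 point for each diet, with the fitted difference as a diamond and its standard error. The points of Fbxo32 lie between 0.68 and 0.94, and those of Trim63 at 0.33 and 0.39 in HF+SFC+ALA and Control but at -0.07 in HF.

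Without the filter on low signals, which enlarged the set of genes tested, the limma adjusted p of Fbxo32, Cblb and Fbxo21 was 0.322, and without the intensity trend in the spread it was 0.280 for each. With no covariate the limma adjusted p was 0.121 for Fbxo32 and 0.0787 for Cblb, and with the mean over probe sets it was 0.153 for Fbxo21 and 0.102 for Cblb. Leaving out the HF+SFC+ALA pool at 4 h or at 24 h left Fbxo32 as the 1 ligase called, with limma adjusted p of 0.0781 and 0.0877 for Fbxo21 and of 0.0520 and 0.0584 for Cblb.

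Probe sets of the same gene did not always give the same size. For Fbxo32 the probe set 1417522_at, with 16961, 11303 and 22667 at 24 h in HF+SFC+ALA, HF and Control against 7685, 7162 and 10721 at 4 h, gave a fasting difference of 0.96 (log2). The dimmest Fbxo32 probe set, 1435265_at, gave 0.31 (limma adjusted p = 0.130), with 0.36 in HF+SFC+ALA, 0.54 in HF and 0.03 in Control. On that probe set the Control pools differed little, at 6448 at 24 h against 6309 at 4 h. Its HF pool at 24 h, at 5725, was below that Control pool at 4 h, so the times overlapped. Whether the brightest signals were near the limit of the scanner was not tested.

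For Cblb the other probe sets gave 0.38 (1437304_at, limma adjusted p = 0.131) and 0.49 (1458469_at, limma adjusted p = 0.282). Signals of 1437304_at, 441 to 606 at 24 h and 337 to 466 at 4 h, overlapped between the times, while those of 1458469_at did not. For Fbxo21 the other probe set, 1451543_at, gave 0.19 (limma adjusted p = 0.660), with -0.02 in HF+SFC+ALA, 0.46 in HF and 0.14 in Control. Its signals, 165.6 to 234.9 at 24 h and 168.3 to 176.8 at 4 h, overlapped between the times. Trim63 had 1 probe set. For Nedd4 the probe set 1421955_a_at gave 0.01, with 0.08 in HF+SFC+ALA, 0.04 in HF and -0.10 in Control, so the direction common to the diets did not hold on it, while 1451109_a_at gave 0.25. Fbxo31 had another one, 1417969_at, that was higher at 24 h in each diet (0.33 in HF+SFC+ALA, 0.23 in HF and 0.38 in Control). The Fbxo30 probe sets ran from -0.08 to 0.29. Of these, 1436550_at was lower at 24 h in each diet (-0.08 in HF+SFC+ALA, -0.10 in HF and -0.05 in Control). Its signals were 676 to 841 over the pools, beside 767 to 1035 on the brightest probe set. In HF alone 1453136_at and 1453137_at were lower at 24 h (-0.26 and -0.03). Of the 5 Traf6 probe sets 3 were below the signal filter.

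**Figure D3:**
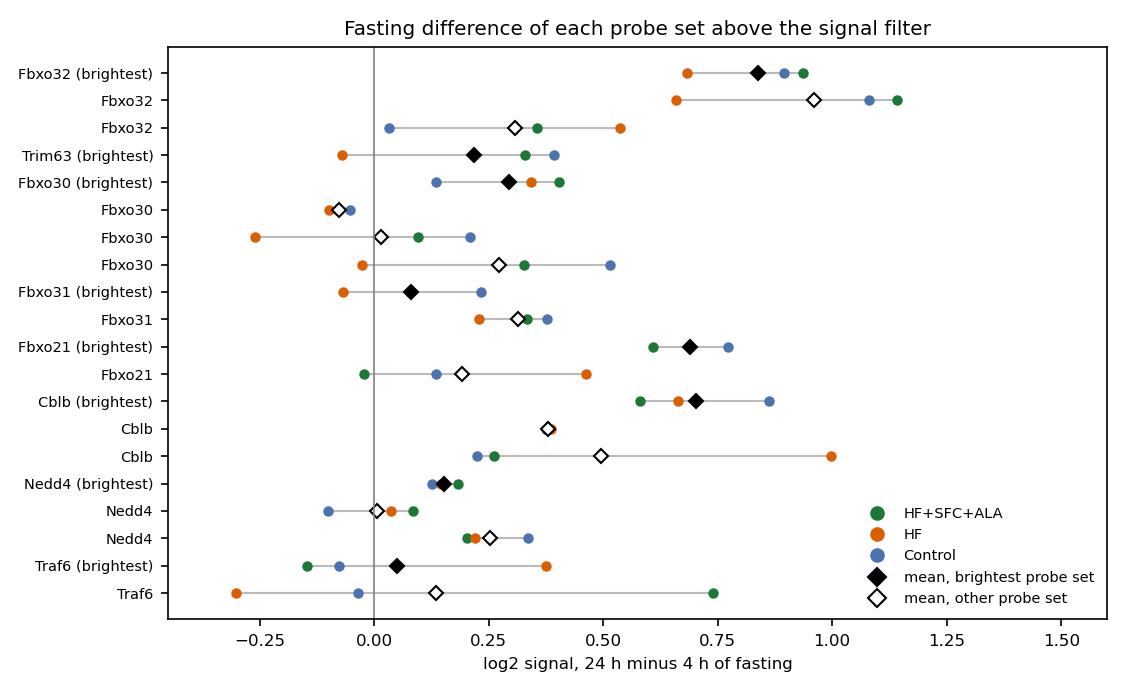
Difference in log2 signal between 24 h and 4 h for each probe set of the ligases above the signal filter, with coloured points for the diets and a diamond for their mean, filled for the brightest probe set of a gene. The means of the Fbxo32 probe sets run from 0.31 to 0.96, and Trim63 has 1 probe set.

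Between HF and Control, 1 of the 8 ligases passed the test. Fbxo32 fell in HF, by 1.67-fold. Over all genes 102, or 0.885%, passed in either direction, and 37, or 0.321%, were lower in HF. The fitted difference was below 0 for 7 ligases and above 0 for Fbxo30, while 50.0% of all genes tested were above 0. The median was -0.18 beside 0.00 over all genes tested (log2). An unadjusted p under 0.05 was found for 4 ligases, and for 1692 of the 11526 genes.

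Fbxo32 had 14183 in HF against 25513 in Control at 24 h, and 8834 in HF against 13711 in Control at 4 h. HF was below Control at either time, and the fitted difference was -0.74 ± 0.09 (log2, SE, 2 pools against 2; 95% interval -0.93 to -0.55; limma adjusted p = 0.00741). It was -0.85 at 24 h and -0.63 at 4 h. The probe set 1417522_at gave -0.79, and the dimmest, 1435265_at, gave -0.42 (limma adjusted p = 0.147).

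Cblb was lower in HF at both times, by -0.53 at 24 h and -0.33 at 4 h, and did not pass (-0.43 ± 0.12, log2, SE; limma adjusted p = 0.152). Without the Control pool at 4 h it was -0.55 and passed (limma adjusted p = 0.0252), in a fit in which 592 genes were called. Trim63 had 18795 in HF against 29032 in Control at 24 h and 19731 in HF against 22109 in Control at 4 h. Its difference was -0.63 at 24 h and -0.16 at 4 h, and the fitted -0.40 ± 0.11 did not pass (log2, SE; limma adjusted p = 0.158). Without the Control pool at 4 h the Trim63 difference was -0.53 (limma adjusted p = 0.0212), and without the HF pool at 4 h it was -0.61 (limma adjusted p = 0.00963). Without the HF pool at 24 h it was -0.18 (limma adjusted p = 0.477), and without the Control pool at 24 h -0.26 (limma adjusted p = 0.594).

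The remaining ligases differed less between HF and Control. The fitted differences were -0.21 ± 0.09 for Fbxo31, -0.14 ± 0.13 for Fbxo21, -0.12 ± 0.08 for Nedd4, -0.11 ± 0.20 for Traf6 and 0.02 ± 0.12 for Fbxo30 (log2, SE), with limma adjusted p between 0.339 and 0.945. HF was below Control at both times for 6 of 8 ligases (Fbxo32, Trim63, Fbxo31, Fbxo21, Cblb and Nedd4), as for 3524 genes (30.6%). On other probe sets, Nedd4 was higher in HF at both times (1451109_a_at, 0.14 at 24 h and 0.26 at 4 h). Fbxo21 (1451543_at, 0.27) and Cblb (1458469_at, 0.25) were higher in HF at 24 h only. The other probe sets of Fbxo32 and Fbxo31, 1437304_at of Cblb and 1421955_a_at of Nedd4 were lower in HF at both times. The Control pool at 24 h was the highest of the 6 pools for 5 ligases (Fbxo32, Trim63, Fbxo31, Fbxo21 and Cblb), as for 2640 genes (22.9%).

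The HF pool at 4 h was the lowest pool for 5 ligases (Fbxo32, Fbxo30, Cblb, Nedd4 and Traf6), as for 2133 genes (18.5%). This pool had the highest actin 3' to 5' ratio, while its GAPDH ratio lay within the range of the other pools. The part of RNA quality was not tested. Without that pool 2 ligases were called for HF against Control, Fbxo32 and Trim63, and 275 genes in all, against 102 with all 6 pools. The call for Fbxo32 ended without the signal filter (limma adjusted p = 0.359), without the intensity trend (limma adjusted p = 0.308), with the fasting time left out of the model (limma adjusted p = 0.607) and with the mean over probe sets (limma adjusted p = 0.0529).

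Markers of other cell types moved with the diet. At 24 h the summed signal of the 5 adipocyte markers on the array was 37023 in HF against 26925 in Control, and at 4 h 32800 in HF against 22938 in Control. Most of that sum was Fabp4, at 31773 in HF against 26207 in Control at 24 h. The median difference of the 5 markers was at least 2.17 (log2), since Lep and Retn were at the signal floor in the Control pool at 24 h. Of the 5, 3 rose in HF: Lep at least 13.4-fold, Adipoq 6.18-fold and Cidec 3.76-fold (limma adjusted p = 0.00275, 0.00275 and 0.00741). The 7 macrophage markers summed to 4413 in HF against 2432 in Control at 24 h and to 3588 in HF against 2640 in Control at 4 h. For the 5 fibroblast markers the sums were 31946 in HF against 26175 in Control at 24 h and 31916 in HF against 26480 in Control at 4 h. The 2 tendon markers, Tnmd and Scx, summed to 1597 in HF against 853 in Control at 24 h and to 1585 in HF against 967 in Control at 4 h. The 9 skeletal muscle markers summed to 391262 in HF against 378171 in Control at 24 h and to 332568 in HF against 368127 in Control at 4 h. Their part in the Fbxo32 difference was not tested.

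**Figure D4:**
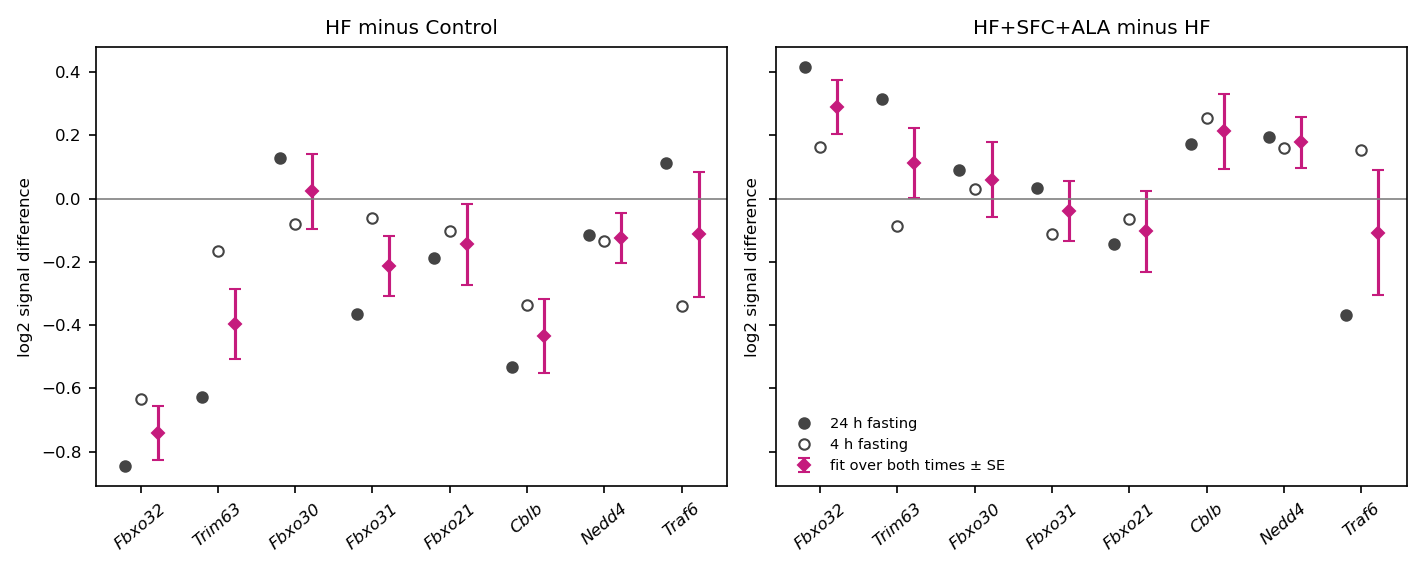
Difference in log2 signal of each ligase between HF and Control (left) and between HF+SFC+ALA and HF (right), with points for 24 h and 4 h and the fitted difference with its standard error. Fbxo32 lies at -0.85 and -0.63 for HF against Control and at 0.42 and 0.16 for HF+SFC+ALA against HF.

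Between HF+SFC+ALA and HF, 0 of the 8 ligases and 0 of 11526 genes (0%) passed by limma. Unadjusted, 585 genes and 1 ligase had a p under 0.05. Fbxo32 had 18934 in HF+SFC+ALA against 14183 in HF at 24 h and 9899 in HF+SFC+ALA against 8834 in HF at 4 h. It was higher with the supplement at both times, by 0.42 at 24 h and 0.16 at 4 h, and the fitted 0.29 ± 0.09 did not pass (log2, SE; 95% interval 0.10 to 0.48; limma adjusted p = 0.751). Markers of other cells were mostly lower in HF+SFC+ALA than in HF, with none past the threshold. All 5 adipocyte markers were lower (median -1.68, log2), as were all 4 smooth muscle markers (median -0.55), all 5 fibroblast markers (median -0.41) and 6 of 7 macrophage markers (median -0.14). Their part in the Fbxo32 values was not tested.

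Cblb stood 0.17 higher at 24 h and 0.25 higher at 4 h in HF+SFC+ALA than in HF, and Nedd4 stood 0.20 and 0.16 higher at those times. Neither passed (0.21 ± 0.12 and 0.18 ± 0.08, log2, SE; limma adjusted p = 0.970 for each). Trim63 was 0.31 higher in HF+SFC+ALA at 24 h, but its difference at 4 h was -0.09 (fitted 0.11 ± 0.11, log2, SE; limma adjusted p = 0.973). The other fitted differences ran from -0.11 for Traf6 to 0.06 for Fbxo30. Over the 8 ligases the median was 0.09, beside 0.00 over all genes tested. Of the ligases 5 were above 0 and 3 below, while 48.7% of all genes tested were above 0.

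Against Control, HF+SFC+ALA gave 0 of 8 ligases past the threshold and 4 genes in all (0.0347%) by limma. Unadjusted, 3 ligases had a p under 0.05, as had 1426 genes. Fbxo32 was lower in HF+SFC+ALA than in Control at either time, at 18934 against 25513 at 24 h and 9899 against 13711 at 4 h (-0.45 ± 0.09, log2, SE; 95% interval -0.64 to -0.26; limma adjusted p = 0.133). It passed without the Control pool at 4 h (-0.49, limma adjusted p = 0.0273), without the HF pool at 4 h (-0.45, limma adjusted p = 0.0307) and without the HF pool at 24 h (-0.45, limma adjusted p = 0.0288). In these fits 435, 88 and 88 genes were called, against 4 with all 6 pools. For Trim63 the difference was -0.28 ± 0.11 (log2, SE; limma adjusted p = 0.347). The 3 diet comparisons share pools, so their values are not independent of each other.

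Among themselves the ligases followed the pools to different degrees. Over the 6 pools, all on arrays scaled to a common mean, Pearson's r of the log2 signal was 0.97 between Fbxo32 and Cblb and 0.93 between Fbxo21 and Cblb. It was 0.88 between Fbxo32 and Fbxo21, 0.87 between Fbxo32 and Trim63 and 0.91 between Trim63 and Fbxo31. Traf6 had an r of -0.03 to 0.34 with the other ligases. These values describe 6 points.

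Of 5778 genes that varied by at least 0.5 (log2) over the pools, the 5 most like Fbxo32 were Mybbp1a, Rasl11b, Klhl21, Jun and C2cd3, each with an r of 0.995 to 0.998 over 6 pools. Jun, a subunit of the transcription factor AP-1, had 5156, 4380 and 6772 at 24 h in HF+SFC+ALA, HF and Control, against 2952, 2831 and 4053 at 4 h. As for Fbxo32, the Control pool at 24 h was highest and the HF pool at 4 h lowest. Genes were picked here for a high r, so a shared order follows from the choice. The 5 most like Trim63 were Mak16, Chac1, Per1, Slc43a1 and Snhg1, with an r of 0.976 to 0.997. Chac1, an enzyme that degrades glutathione, had 9860, 6381 and 13594 at 24 h in HF+SFC+ALA, HF and Control, against 6348, 7343 and 9002 at 4 h. Per1, a clock gene, had 842, 676 and 1157 at 24 h against 621, 713 and 850 at 4 h in the same order of diets. In the HF pools Chac1, Per1, Mak16 and Slc43a1 were lower at 24 h than at 4 h, as Trim63 was, while Snhg1 was higher (1152 against 1019). In the other diets all 5 were higher at 24 h. Here too the likeness to Trim63 follows from the choice by r.

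Genes around the ligases were read from 6 lists. The 13 tested other muscle ubiquitin ligases and the 11 tested genes of the SCF core and ubiquitin conjugation had no member past the threshold for fasting or for HF against Control. Their median fasting differences were 0.01 and -0.04, beside 0.01 over all genes tested. In the first list the smallest p for fasting were those of Ubr1, a ligase of the N-degron pathway (0.34 ± 0.09, log2, SE; limma adjusted p = 0.0856), and Nedd4l, a relative of Nedd4 (0.42 ± 0.13; limma adjusted p = 0.134). In the second they were those of the conjugating enzymes Ube2g1 (0.26 ± 0.06, log2, SE; limma adjusted p = 0.0714) and Ube2d2a (-0.30 ± 0.11; limma adjusted p = 0.200). Of the 9 deubiquitinases, which take ubiquitin off, 0 passed for fasting or HF against Control. Their median fasting difference was 0.02. The largest HF difference among them was that of Tnfaip3, a brake on inflammatory signalling, at 1.34 ± 0.30 (log2, SE; limma adjusted p = 0.0868).

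Of 17 transcription factors and cofactors linked to atrophy, 1 rose and 2 fell at 24 h against 4 h, with a list median of 0.08. Foxo3, a FoxO factor that acts on the Fbxo32 and Trim63 genes in mouse muscle, rose by 0.39 ± 0.08 (log2, SE; limma adjusted p = 0.0485), and its other probe sets gave 0.36 and 0.15. The FoxO factors Foxo1 at -0.23 (limma adjusted p = 0.375) and Foxo4 at 0.08 (limma adjusted p = 0.689) did not pass. Ppargc1a, a coactivator of mitochondrial genes, fell by 0.9995 ± 0.17 (log2, SE; limma adjusted p = 0.0212). Smad3, which carries myostatin and TGF-beta signals, fell by 0.77 ± 0.11 (log2, SE; limma adjusted p = 0.0129). Between HF and Control none of the 17 passed, with a list median of -0.19. The smallest p were those of Atf4 at -0.38 (limma adjusted p = 0.0599) and Cebpd at -1.35 ± 0.28 (log2, SE; limma adjusted p = 0.0676). Foxo3 was at -0.46 (limma adjusted p = 0.0880), and its other probe sets above the signal filter were at -0.17 and 0.20.

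Of 15 known substrates or partners of these ligases, 1 fell with fasting. Irs1, the insulin receptor substrate, fell by 0.40 ± 0.06 (log2, SE, limma adjusted p = 0.0167) on its single probe set above the signal filter. The list's median was 0.01. Vim, an intermediate filament protein that fibroblasts also express, rose in HF against Control by 0.46 ± 0.08 (log2, SE; limma adjusted p = 0.0278). The fibroblast marker sum was higher in HF as well, and its part was not tested.

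The 18 other atrophy genes, which are not ubiquitin ligases, had 5 that rose and 1 that fell at 24 h against 4 h, with a median of 0.27. Gadd45a, a growth arrest protein induced in denervated and fasted muscle, rose by 0.81 ± 0.08 (log2, SE; limma adjusted p = 0.00208), and Ulk1, the kinase that starts autophagy, by 0.62 ± 0.09 (limma adjusted p = 0.0136). Eif4ebp1, a brake on translation, rose by 0.78 ± 0.13 (log2, SE; limma adjusted p = 0.0213). Gabarapl1, an autophagosome protein, and Txnip, which limits glucose uptake, rose too, and Cdkn1a, a cell cycle inhibitor, fell by 0.61 ± 0.12 (log2, SE; limma adjusted p = 0.0331). In HF against Control 2 of the 18 fell, Gadd45a at -0.93 ± 0.09 (log2, SE; limma adjusted p = 0.00652) and Ulk1 at -0.82 ± 0.12 (limma adjusted p = 0.0164). A second Ulk1 probe set gave -0.15 for that comparison. Between HF+SFC+ALA and HF, 0 genes of the 6 lists passed by limma, and Gadd45a was at 0.36 (limma adjusted p = 0.523).

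**Figure D5:**
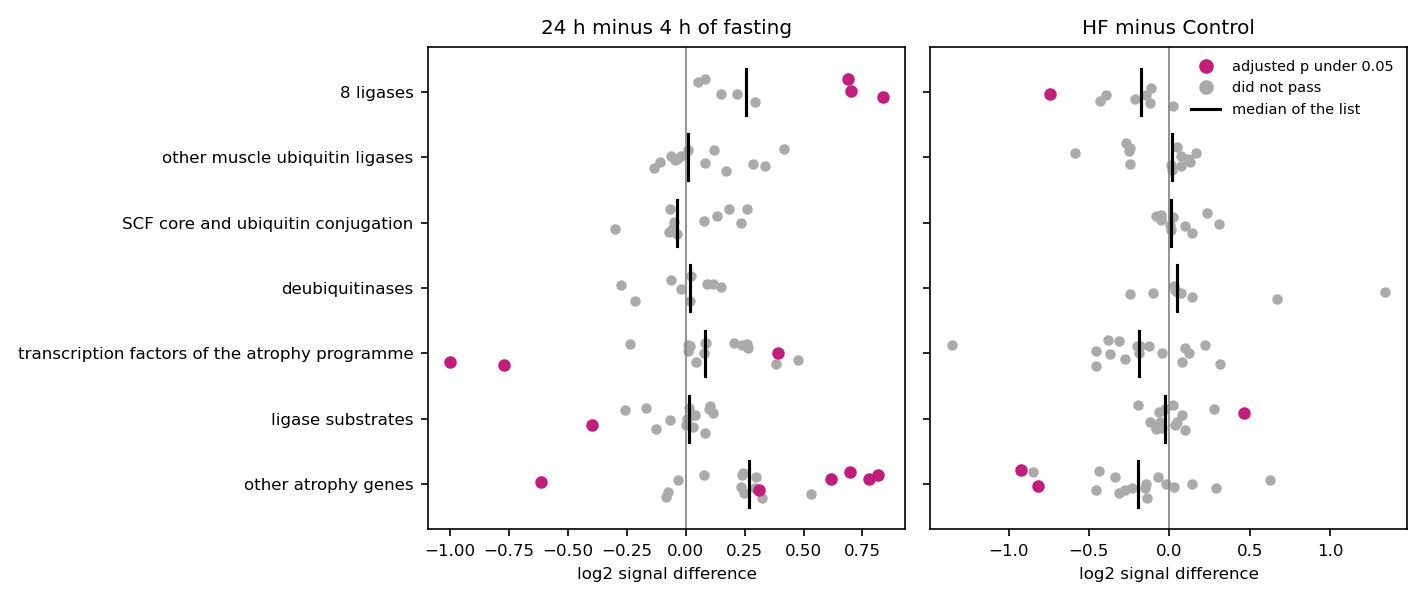
Fitted log2 difference of each tested gene of the 8 ligases and the 6 lists, for 24 h against 4 h (left) and HF against Control (right). Magenta points passed an adjusted p of 0.05, grey points did not, and bars are list medians. The median of the 8 ligases is 0.26 on the left and -0.18 on the right, and those of the other atrophy genes are 0.27 and -0.19.

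The 250 bases upstream of Trim63, Cblb and Fbxo21 are shown with a search for motifs of transcription factors. Cblb and Fbxo21 are shown as ligases that passed for fasting. Trim63, which did not pass, is shown for the motifs that its window holds. The RefSeq table of promoters (GRCm38.p6) held 7 of the 8 members, all but Fbxo32, in 8 windows. Windows were searched on both strands for TGTTTAC and for TGTTT, the long and short forkhead motifs bound by FoxO factors, for TGTTCT, a half-site of the glucocorticoid receptor, for CANNTG, the E-box, and for TGATGNAA, a motif of Atf4 with C/EBP. The short forkhead motif lies within the long one. In the sequences the capitals mark the half-site and the long forkhead motif that follows it without a gap.
Trim63, chr4:134314870-134315119, + strand: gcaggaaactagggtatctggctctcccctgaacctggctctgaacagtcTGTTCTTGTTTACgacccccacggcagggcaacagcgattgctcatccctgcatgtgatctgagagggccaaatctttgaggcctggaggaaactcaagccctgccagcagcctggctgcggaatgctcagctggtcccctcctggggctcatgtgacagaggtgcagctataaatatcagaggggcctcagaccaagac
Cblb, chr16:52031299-52031548, + strand: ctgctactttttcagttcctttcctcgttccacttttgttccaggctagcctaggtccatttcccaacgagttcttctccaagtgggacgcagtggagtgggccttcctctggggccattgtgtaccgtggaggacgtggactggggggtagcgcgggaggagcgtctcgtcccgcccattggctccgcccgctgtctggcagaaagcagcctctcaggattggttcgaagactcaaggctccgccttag
Fbxo21, chr5:117976520-117976769, + strand: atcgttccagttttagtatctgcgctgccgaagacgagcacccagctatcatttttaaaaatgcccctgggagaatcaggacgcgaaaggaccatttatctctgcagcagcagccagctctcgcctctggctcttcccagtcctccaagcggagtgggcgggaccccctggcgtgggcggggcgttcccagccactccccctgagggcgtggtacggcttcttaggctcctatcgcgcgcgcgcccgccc
Trim63 held TGTTCT at bases 200 to 195 and TGTTTAC at bases 194 to 188 before the start, both on the + strand. It was the 1 window of 32851 with these motifs in that direct order. The joined string of 13 letters was not among the 5 motifs planned. It was counted in the arrangement that this window holds, so the count is a description and no test. Alone, TGTTTAC was in 3.166% of all windows, TGTTCT in 16.085%, TGTTT in 46.403%, CANNTG in 66.217% and TGATGNAA in 3.452%. The Trim63 window also held 3 E-boxes. The Cblb window held 1 E-box and the Fbxo21 window none of the motifs. The windows of Fbxo30 and Fbxo31 and the first of Nedd4 held none either. The second Nedd4 window held 2 copies of TGTTT, 1 of TGTTCT and 4 E-boxes, and that of Traf6 held 2 copies of TGTTT and 2 E-boxes. A match describes the letters and shows no binding.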

How the data were processed

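The values deposited by the authors are linear intensity, 1 value a probe set and pool. Per the submitters' processing notes, MAS5 made them; its settings are not stated. After 64 control probe sets were removed from 45101, the platform annotation paired 34945 with 1 gene symbol, 932 with several and 9160 with none. Symbols were updated by gene identifier through RefSeq for 34741. From the deposited intensities, values below a floor of 26.4 (30th percentile) were raised to it (96 values among genes tested) and log2 was taken. The brightest probe set by mean log2 signal stood for each of 18193 genes. Genes above the median of all probe sets (5.88) were tested, 11526 in all.

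limma 3.58.1 in R 4.3.3 fitted diet and fasting time over all 6 pools (lmFit, eBayes with trend, 2 residual and 7.27 prior degrees of freedom), with Benjamini-Hochberg adjustment at 0.05. The number of arrays limits the precision. The fit was tested on simulated data. Python 3.11.15 with pandas 2.3.3 and matplotlib 3.10.9 drew the figures.

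The members and lists were chosen with earlier results of these data known. Named beside the members are list genes past the threshold (up to 4 by smallest p for a comparison, otherwise the 2 with the smallest p; a further list gene is given where a result turned on it, chosen after its values were seen) and the 5 genes most like Fbxo32 and Trim63. Alternatives were quantile normalization, other signal filters, no floor, a pseudocount, the mean over probe sets, other probe sets, no trend, no covariate and leaving out each pool.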

Additional observations from a re-analysis of the deposited data

Results flagged for a closer look

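For 4 ligases, pools of one diet or time differed in one direction and those of another in the opposite direction. Each such value comes from 1 pool against 1, so the difference between diets or times was not tested, and many of the values are small. All are log2 differences.

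Trim63 stood at 0.330 in HF+SFC+ALA, -0.0701 in HF and 0.393 in Control for 24 h against 4 h, and at 0.314 at 24 h and -0.0863 at 4 h for HF+SFC+ALA against HF. Fbxo31 stood at 0.0794 in HF+SFC+ALA, -0.0689 in HF and 0.234 in Control for 24 h against 4 h, and at 0.0352 at 24 h and -0.113 at 4 h for HF+SFC+ALA against HF. For both genes the HF pools had the opposite sign in fasting.

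Traf6 stood at -0.147 in HF+SFC+ALA, 0.376 in HF and -0.0772 in Control for 24 h against 4 h. It was at 0.113 at 24 h and -0.340 at 4 h for HF against Control, and at -0.369 at 24 h and 0.154 at 4 h for HF+SFC+ALA against HF. Fbxo30 stood at 0.128 at 24 h and -0.0803 at 4 h for HF against Control, and at 0.218 at 24 h and -0.0500 at 4 h for HF+SFC+ALA against Control.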

How the results depend on the processing

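For fasting, 3 ligases and 278 genes passed. These counts were 0 and 0 without the signal filter (2026 genes unadjusted), 0 and 0 without the intensity trend (1639 unadjusted), 1 and 18 with the mean over probe sets, 1 and 60 with no covariate, and 1 to 4 and 59 to 455 when 1 pool was left out. For HF against Control, 1 ligase and 102 genes passed. These counts were 0 and 0 without the signal filter (1993 unadjusted), 0 and 0 without the trend (1348 unadjusted), 0 and 1 with the mean over probe sets, 0 and 0 with no covariate (982 unadjusted), and 1 to 3 and 47 to 592 with 1 pool left out. For HF+SFC+ALA against HF no ligase passed under any alternative run; 6 genes passed with the filter at the 65th percentile and 0 to 109 with 1 pool left out. For HF+SFC+ALA against Control 4 genes passed, with 0 under quantile normalization, no filter, the mean over probe sets, no trend and no covariate; with 1 pool left out, 0 to 1 ligases and 0 to 435 genes passed. With the mean over probe sets Traf6 fell below the signal filter and was not among the ligases tested. Fewer pools or other genes tested change these counts by construction. Other causes were not tested.

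Some differences that had not passed changed sign (log2). With 1 pool left out, Traf6 ran from -0.11 to 0.15 for fasting, from -0.36 to 0.13 for HF against Control and from -0.35 to 0.14 for HF+SFC+ALA against HF. In the last comparison Trim63 ran from -0.10 to 0.33, Fbxo31 from -0.15 to 0.0739 and Fbxo30 from -0.0217 to 0.14. Fbxo30 ran from -0.10 to 0.14 for HF against Control and from -0.0349 to 0.20 for HF+SFC+ALA against Control. With the mean over probe sets Fbxo30 was -0.0289 for HF against Control and Fbxo31 0.0049 for HF+SFC+ALA against HF. On other probe sets, the fasting difference of Fbxo30 was -0.0762. HF against Control was -0.17 and -0.13 for Fbxo30, 0.20 for Nedd4, 0.11 for Fbxo21 and 0.0730 for Traf6. HF+SFC+ALA against HF was -0.0832 for Fbxo30, -0.17 for Nedd4 and 0.0487 for Fbxo31, and against Control -0.25 for Fbxo30 and -0.27 for Nedd4.

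No paired analysis was possible by replicate number because each combination of diet and fasting time had 1 pool and thus 1 number. The model itself pairs pools within a diet for fasting and within a fasting time for diet, and the values with no covariate are those without that pairing.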
